A study of Mus musculus with 24 samples.

Results

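The collagen genes are described here across the gingiva and the dentoalveolar complex of mice with ligature periodontitis. The members are the protein-coding genes whose mouse symbol has the form Col, a number, a and a number, and whose identifier is listed in the count tables. That rule found 38 genes among 38321 listed identifiers. The GENCODE M21 annotation names 44 genes by the same rule, and the remaining 6 were not analysed here. By the kind of structure they form, the 38 genes comprised 9 fibrillar collagens, 6 chains of the type IV network of basement membranes, 7 fibril-associated collagens, 6 type VI chains of beaded filaments, 1 anchoring fibril collagen, 3 transmembrane collagens, 2 multiplexins, 2 short-chain collagens and 2 others.

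All mice were female, wild type and C57BL/6J, aged 11 weeks at the start, and every library came from a mouse with periodontitis. Sham mice had a sham operation on day 0, OVX mice lost both ovaries on that day, and both received corn oil vehicle from day 4. OVXE2 mice were ovariectomised and received subcutaneous estradiol benzoate in corn oil, 1 µg a day, from day 4. A silk ligature was tied around the second upper molars on each side on day 7 in all 3 groups, and tissue was taken on day 14. No group without a ligature was included. Gingiva from around the upper molars and the dentoalveolar complex (DAC), which is tooth-bearing jaw bone and its teeth without soft tissue, were each sequenced as poly(A) RNA in 4 biological replicates per group, 24 libraries in all. The labels do not state that each replicate was 1 animal, or that the gingiva and DAC with the same number came from 1 mouse. The p-values below therefore measure the spread between these samples.

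Collagens are extracellular proteins of 3 chains wound into a triple helix, which requires glycine at every turn and so gives the chains their repeated Gly-X-Y sequence. Fibrillar collagens, above all type I, give tensile strength to bone matrix, dentin, gingiva and the periodontal ligament. Type IV collagen forms sheets under epithelia and around blood vessels, where the multiplexins, collagens XV and XVIII, are also found.

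The glycine repeat was read from the coding sequence of each member's principal GENCODE M21 transcript on GRCm38, as a GGN codon at the start of each group of 3 codons. The exons shown were chosen because they set the unbroken repeat of the fibrillar chains, which carried most of the collagen counts, beside the chains that rose with estradiol in the DAC. Each exon is printed 5′ to 3′ on the coding strand, and capitals mark the glycine codons of a run of at least 3 groups.
Col1a1 exon 8, chr11:94939904-94939957, plus strand: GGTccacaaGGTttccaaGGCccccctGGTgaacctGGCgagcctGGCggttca
Col1a2 exon 8, chr6:4515481-4515534, plus strand: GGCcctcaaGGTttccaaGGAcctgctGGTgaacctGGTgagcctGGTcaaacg
Col3a1 exon 6, chr1:45325360-45325413, plus strand: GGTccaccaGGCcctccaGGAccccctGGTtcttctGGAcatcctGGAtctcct
Col4a1 exon 7, chr8:11245211-11245264, minus strand: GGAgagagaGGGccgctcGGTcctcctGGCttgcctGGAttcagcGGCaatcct
Col4a1 exon 9, chr8:11244486-11244569, minus strand: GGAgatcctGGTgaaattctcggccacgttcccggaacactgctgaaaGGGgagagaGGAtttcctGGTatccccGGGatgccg
Col15a1 exon 14, chr4:47270912-47270974, plus strand: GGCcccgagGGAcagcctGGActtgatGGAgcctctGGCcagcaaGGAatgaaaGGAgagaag

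By that choice, the 3 fibrillar exons and Col4a1 exon 7 were each 54 bases long and wholly in the repeat. Of the 32 repeat exons of Col4a1, 2 were 54 bases long. Col4a1 exon 9 was 84 bases long, and 10 of its codons lay outside the runs. Over whole coding sequences, the longest unbroken run was 338 groups in Col1a1, 339 in Col1a2 and 344 in Col3a1. It was 40 groups in Col4a1, 66 in Col4a2 and 30 in both Col15a1 and Col18a1. The range over all 38 members was 23 to 344. Exons of 54 bases made up 59.2% of the 417 repeat exons of the fibrillar genes, 8.2% of the 147 repeat exons of the type IV genes and 36.7% of the 994 repeat exons of all members.

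Total gene counts ranged from 14771830 to 29248358 per library. Osteoblast and basal keratinocyte markers went with the tissue labels. The summed level of 6 osteoblast markers was 6753 to 12970 CPM in the DAC and 129 to 300.6 CPM in gingiva. That of 3 basal keratinocyte markers was 826 to 2683 CPM in the DAC and 13310 to 21920 CPM in gingiva. CPM are read counts relative to the library's size, scaled here by edgeR's TMM factors over all 24 libraries. The sum of 7 ameloblast markers did not go with the labels, at 86.8 to 284.6 CPM in the DAC and 198.6 to 368.6 CPM in gingiva. The DAC also held 331 to 4155 CPM of 8 skeletal muscle markers and, in Sham, 3350 to 22770 CPM of 14 gland markers. One library, DAC OVX replicate 1, held 141700 CPM of those gland markers, while the lowest DAC OVX library held 2386 CPM. The gene counts took only reads on 1 strand, and the share of reads on the other strand was 3.38 to 9.03%. In the DAC that share split the libraries into a set of 8 (Sham 1, 2 and 3, OVX 3 and 4, OVXE2 1, 2 and 3) and a set of 4. DAC results are also given within the set of 8. Inside that set the share was 5.69 to 6.57% in OVXE2 and 7.63 to 8.81% in Sham and OVX. Share and estradiol therefore cannot be told apart there.

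Collagen genes took far more of the DAC libraries than of the gingival ones. They made up 13.6 to 18.8% of all gene counts in the 12 DAC libraries and 0.603 to 1.81% in the 12 gingival libraries, so the tissues did not overlap. Col1a1 and Col1a2, the chains of type I collagen, and Col3a1, the chain of type III collagen, together held 88.0% ± 0.898 (SD, n = 12) of the DAC collagen counts and 70.9% ± 2.40 (SD, n = 12) of the gingival ones. Type IV chains made up 5.35% ± 0.809 (SD, n = 12) of the collagen counts in gingiva, against 1.02% in DAC Sham. In bulk RNA, fewer cells of a type and less RNA per cell cannot be told apart.

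Levels can be compared between genes only per length, as CPM per kilobase of the principal transcript. On that scale Col1a1, Col1a2 and Col3a1 were the 3 highest members in both tissues, in that order, with mean levels of 10280, 9007 and 4502 CPM per kilobase in the DAC and 579, 487 and 406.5 in gingiva. The spread among DAC libraries was 10.5%, 10.4% and 8.99% of the mean and the spread among gingival libraries 32.7%, 33.4% and 27.9%. In gingiva the next members were Col6a1 and Col6a2 at 69.6 and 66.2 CPM per kilobase, Col18a1 at 55.4, Col4a1 at 52.9 and Col5a2 at 46.1. In the DAC they were Col5a2 at 448, Col6a1 at 401, Col6a2 at 389, Col5a1 at 279 and Col12a1 at 270.2, and Col18a1 and Col4a1 stood lower in that order, at 112 and 144.5 CPM per kilobase. The differences between Col6a1 and Col6a2 and between Col18a1 and Col4a1 in gingiva were smaller than their SD over libraries. That SD does not measure the spread of a difference within a library. Within gingival libraries Col6a1 per Col6a2 averaged 1.056 (0.9999 to 1.115). Col18a1 stood above Col4a1 in most of them, but below it in OVXE2 2 (72.9 and 82.06) and OVXE2 4 (54.57 and 58.34).

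**Figure D1:**
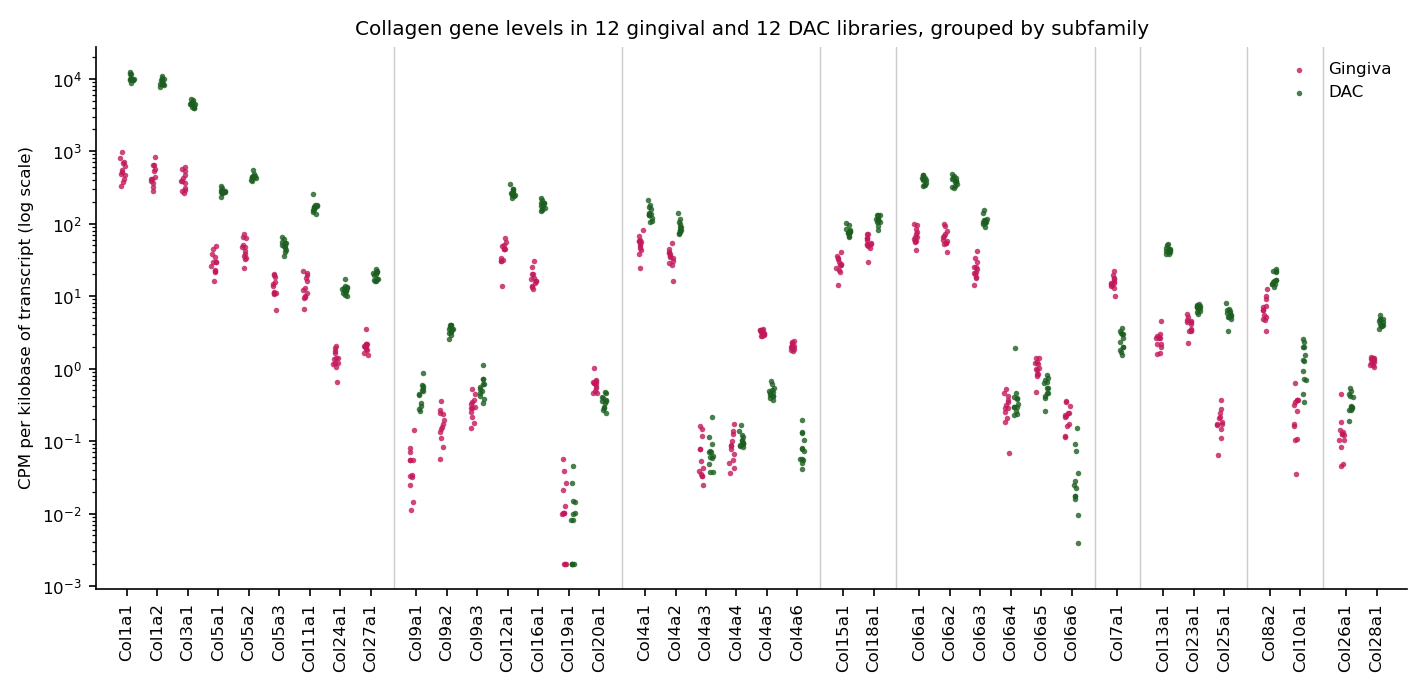
Level of each of the 38 collagen genes in gingiva and in the DAC, in CPM per kilobase on a log axis, 1 point per library with values of 0 drawn at 0.002. Col1a1, Col1a2 and Col3a1 stand above every other member in both tissues, and Col4a5, Col4a6 and Col7a1 are the members whose DAC libraries all lie below the gingival ones.

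In the DAC, 13 members reached a mean of 100 CPM per kilobase, namely Col1a1, Col1a2, Col3a1, Col4a1, Col5a1, Col5a2, Col6a1, Col6a2, Col6a3, Col11a1, Col12a1, Col16a1 and Col18a1. Only Col1a1, Col1a2 and Col3a1 did so in gingiva. At the other end, Col19a1, a fibril-associated collagen, was at 0 to 0.238 CPM in every library and entered no test. The filter on low counts also left out Col6a6 in the DAC fit, and Col9a1 and Col26a1 in the gingival fit. These 3 genes entered the fit of both tissues, where they were kept by the tissue in which they were higher.

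In Sham mice, 28 of the 37 collagen genes tested were higher in the DAC than in gingiva and 6 were lower, by edgeR's quasi-likelihood test with Benjamini-Hochberg adjusted p under 0.05. Over all 14209 genes, 39.7% were higher and 35.4% lower. Without Col6a6, Col9a1 and Col26a1, which passed the filter through 1 tissue, 26 of 34 were higher and 5 lower. The median difference was a log2 fold change of 2.05 for the collagen genes and 0.07 for all genes. The counts were 27 higher and 6 lower in OVX mice (38.1% and 34.2% of all genes) and 28 and 6 in OVXE2 mice (38% and 34.1%). Among the 34 members that passed the filter in both tissues, they were 25 and 5 in OVX and 27 and 5 in OVXE2. Scaling by total counts alone moved the median of all genes in Sham to 0.25 and gave 29 collagen genes higher and 6 lower. Across all 12 libraries of each tissue, the values of 25 of 38 members were all higher in the DAC, those of 3 were all lower, and 10 overlapped.

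All 9 fibrillar genes were higher in the Sham DAC, with a median log2 fold change of 3.44. Col1a1 was at 3245, 3716, 1985 and 2783 CPM in the 4 Sham gingivae and at 58900, 56670, 58930 and 52390 CPM in the Sham DACs. Every DAC value was far above the highest gingival one, and the log2 fold change was 4.27 ± 0.28 (SE; adjusted p = 1.44e-11, edgeR). Col1a2 differed by 4.32 ± 0.28 (adjusted p = 1.48e-11) and Col3a1 by 3.60 ± 0.24 (adjusted p = 2.28e-11). Col5a1 and Col5a2, chains of the type V collagen that sits inside type I fibrils, differed by 3.41 and 3.44. Col11a1, a chain of the related type XI collagen, differed by 3.67 ± 0.30, from a mean of 89.5 to 1138 CPM. Col24a1, Col27a1 and Col5a3 differed by 3.30, 3.30 and 2.21.

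The type IV chains went in opposite directions. Col4a1 and Col4a2, the pair found in nearly all basement membranes, were higher in the Sham DAC by log2 1.60 ± 0.22 (adjusted p = 9.27e-07, edgeR) and 1.54 ± 0.21. Col4a5 and Col4a6, which lie head to head on chromosome X and contribute to epithelial basement membranes, were lower. Col4a6 was at 13.3, 13.04, 12.8 and 15.9 CPM in Sham gingiva and at 0.684, 0.365, 0.272 and 0.527 CPM in Sham DAC. Its log2 fold change of -4.85 ± 0.35 (adjusted p = 7.06e-11) was the largest fall among the members. Col4a5 was at 19.6, 18.4, 18.3 and 22.3 CPM in Sham gingiva and 3.00, 3.28, 2.76 and 3.51 CPM in Sham DAC, a log2 fold change of -2.65 ± 0.15 (adjusted p = 2.54e-12). The groups did not overlap for either gene. Col4a3 and Col4a4, which share a start region on chromosome 1, did not pass the test (log2 0.64, adjusted p = 0.178, and 0.67, adjusted p = 0.0611).

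Col7a1, whose protein forms the anchoring fibrils that fasten epithelium to the tissue below, was at 182, 118, 94.2 and 134 CPM in Sham gingiva and 24.5, 15.7, 28.4 and 21.6 CPM in Sham DAC. It was lower in the DAC by log2 -2.54 ± 0.26 (adjusted p = 1.44e-08, edgeR). The fall of Col7a1, Col4a5 and Col4a6 ran beside the basal keratinocyte markers, and the part of those cells in it was not tested. Col6a6, Col6a5 and Col20a1 were lower too, by -2.58, -1.07 and -0.97 on the log2 scale, and Col6a6 passed the filter only through gingiva.

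The largest rise was that of a gene scarce in gingiva. Col25a1, a transmembrane collagen best known from nerve and muscle, was at 0.291, 0.168, 0.446 and 0.566 CPM in Sham gingiva and 13.6, 15.4, 13.9 and 12.8 CPM in Sham DAC. Its log2 fold change was 5.23 ± 0.31 (adjusted p = 3.28e-12, edgeR), the largest of the members, on 4 to 14 counts per gingival library. Summed brain neuron markers were 30.0 to 391 CPM in Sham DAC and 2.33 to 4.53 CPM in Sham gingiva. Schwann cell markers were at 311 to 496 and 121.5 to 177 CPM, and skeletal muscle markers overlapped, at 827 to 3291 and 336 to 2045 CPM. The part of these cells in the Col25a1 difference was not tested. Col9a2, a chain of the type IX collagen that coats cartilage fibrils, went from a mean of 0.395 to 10.4 CPM (log2 4.67 ± 0.34, adjusted p = 6.56e-11). Col13a1, a transmembrane collagen of cell adhesion sites, went from 7.32 to 131.5 CPM (log2 4.16 ± 0.21, adjusted p = 4.95e-13). All 3 transmembrane, both multiplexin and both short-chain genes were higher in the DAC, as were 5 of 6 fibril-associated genes tested and 3 of 6 type VI genes. The 5 include Col9a1, which passed the filter only through the DAC. The 6 type VI genes include Col6a6, which passed only through gingiva. Among the fibril-associated genes, Col16a1 differed by 3.34 and Col12a1 by 2.96, and among the type VI genes Col6a1, Col6a2 and Col6a3 differed by 2.64, 2.66 and 2.34. Col18a1 showed 1.24, the smallest rise of the abundant members.

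**Figure D2:**
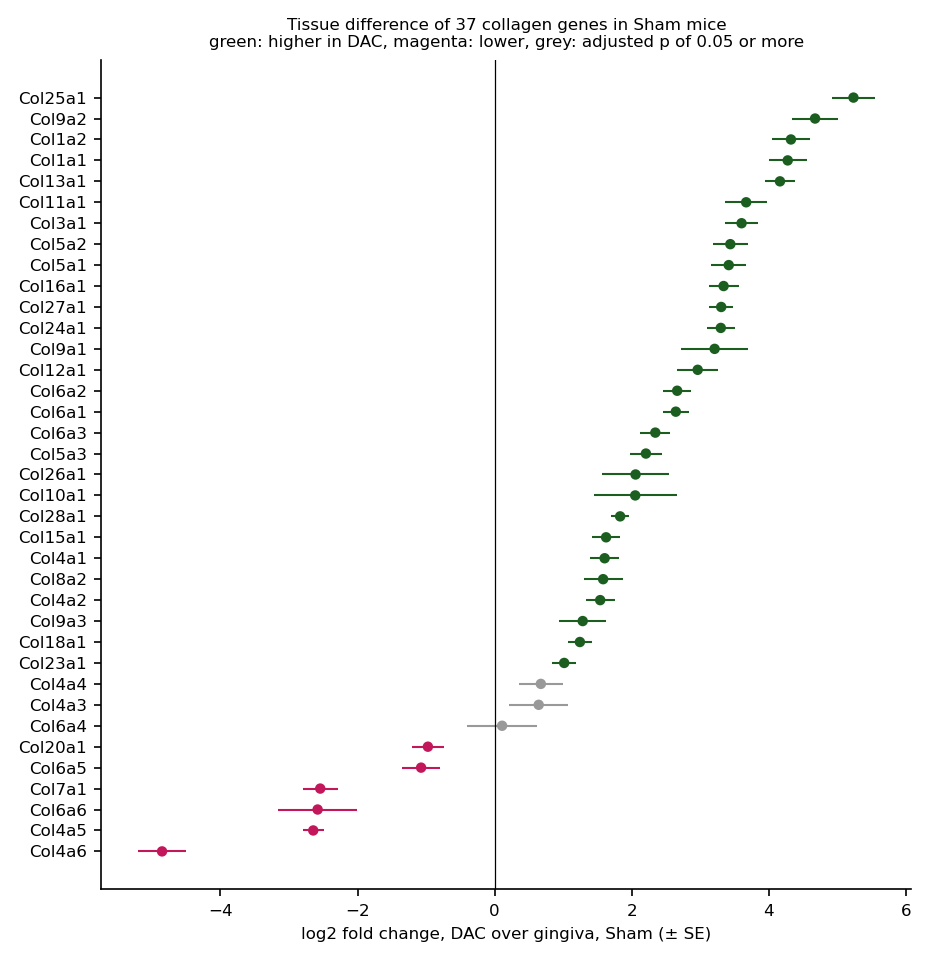
Log2 fold change of the 37 tested collagen genes between DAC and gingiva in Sham mice, with its standard error, ordered by size and coloured by direction where the adjusted p was under 0.05. The fibrillar genes all lie above 0, while Col4a5, Col4a6 and Col7a1 lie below it, Col4a6 lowest at -4.85.

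Genes that make and handle collagen were also mostly higher in the Sham DAC. Of the listed genes for processing in the cell, 20 of 22 tested were higher and 1 lower, for propeptide removal and crosslinking 9 of 10 and 0, for fibril-binding proteoglycans and glycoproteins 8 of 9 and 0, for collagen receptors 7 of 8 and 1, and for degradation 10 of 11 and 1, where 39.7% of all genes were higher and 35.4% lower. In the fits of single tissues, 7 of the 8 receptor genes passed the filter in gingiva and 10 of the 11 degradation genes in the DAC. The others passed only in the other tissue's fit, and they were not left out of these counts. P3h1, which hydroxylates proline in collagen chains, was higher by log2 3.47 and Adamts2, which removes the N-propeptide, by 3.28. Postn, periostin of the periodontal ligament and periosteum, averaged 10710 CPM in the DAC and 570.0 CPM in gingiva (log2 4.23). Itga10 and Itga11, subunits of collagen-binding integrins, were higher by 4.12 and 3.32, and Ctsk, the collagen-degrading protease of osteoclasts, by 4.57.

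The proportions between chains were steadier than their levels. Per kilobase, the ratio of Col1a1 to Col1a2 was 1.05 to 1.28 over the 24 libraries, that of Col4a1 to Col4a2 1.41 to 1.63, and that of Col6a1 to Col6a2 0.974 to 1.12. The chains of each pair join in the same trimers. The variation of these ratios was 4.65%, 3.65% and 3.00% of their means. The mean levels of these chains were from 2.61 (Col4a2) to 18.5 times (Col1a2) as high in the DAC as in gingiva. Other proportions differed: Col3a1 per Col1a1 was 0.363 to 0.511 in the DAC against 0.583 to 0.798 in gingiva, and Col4a5 per Col4a6 was 3.40 to 10.3 in the DAC, above the 1.41 to 1.81 of gingiva. In all, 10 ratios were compared between the Sham tissues by a two-sided exact permutation test of 4 against 4, whose smallest possible p is 0.0286. Col3a1:Col1a1, Col5a1:Col1a1, Col4a5:Col4a6, Col6a3:Col6a1 and Col9a2:Col9a1 reached that exact p, with 0.0571 after Benjamini-Hochberg adjustment over the 10, and Col4a1:Col4a2 and Col11a1:Col5a1 (both p = 0.0571), Col1a1:Col1a2 (p = 0.229), Col5a1:Col5a2 (p = 0.629) and Col6a1:Col6a2 (p = 0.229) did not. Col9a1 passed the filter only through the DAC and had 5, 3, 1 and 3 counts in the Sham gingivae. No conclusion is therefore drawn from Col9a2:Col9a1. The Col4a5:Col4a6 ratio in Sham DAC rests on 18, 6, 6 and 12 counts of Col4a6. Col4a1 per Col4a2 was 1.58 in Sham DAC and 1.51 in Sham gingiva (geometric means).

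**Figure D3:**
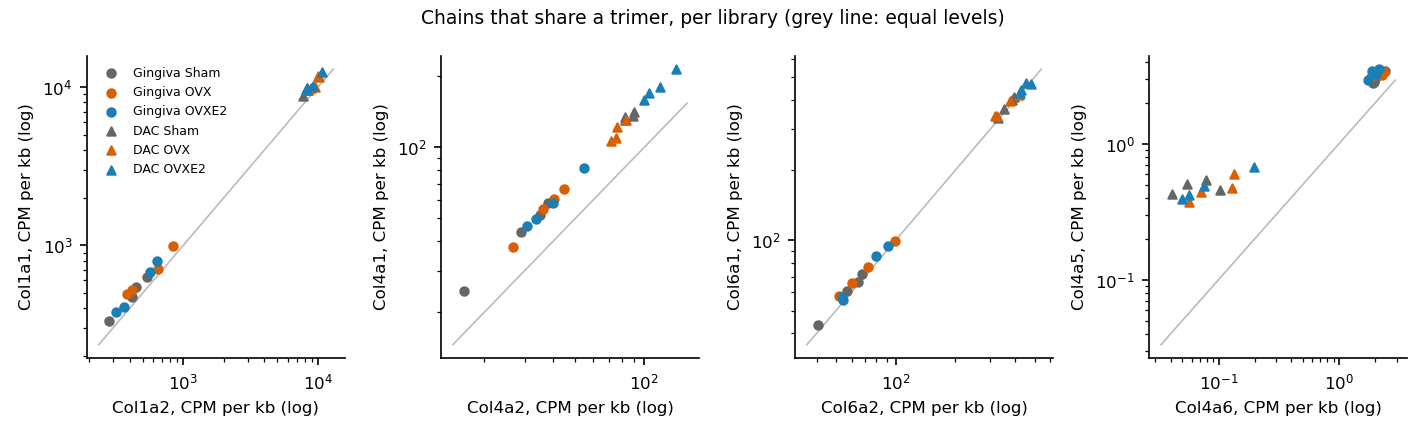
Levels of 4 pairs of collagen chains in all 24 libraries, in CPM per kilobase on log axes, with the grey line marking equal levels. Col1a1 and Col1a2 and Col6a1 and Col6a2 stay near the line in both tissues, while Col4a1 stands above Col4a2 at a ratio of 1.41 to 1.63.

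The effect of estradiol after ovariectomy was tested in the DAC. Col4a1, Col4a2 and Col15a1, collagens of basement membranes and their borders, rose in OVXE2 against OVX, and no collagen gene fell. That was 3 of 36 members tested, where 0.676% of all 13617 genes rose and 1.45% fell. The fibrillar genes that dominate the tissue did not pass the test.

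Col4a1 (ENSMUSG00000031502, chr8:11198423-11312826, minus strand) encodes the alpha 1 chain of type IV collagen, whose interrupted repeat is printed above. It was at 726, 804, 704 and 868 CPM in the OVX DACs and 1053, 1419, 1127 and 1188 CPM in the OVXE2 DACs. The Sham DACs lay between them, at 897, 933.5, 869 and 886 CPM, and the 3 groups overlapped nowhere. Sham and OVX all but met, at 868.7 CPM in Sham 3 and 868.3 CPM in OVX 4, and their difference was not called. The log2 fold change of OVXE2 against OVX was 0.62 ± 0.10, or 1.54-fold (adjusted p = 0.00728, edgeR).

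Col4a2 (ENSMUSG00000031503, chr8:11312805-11449287, plus strand) encodes the partner chain, and the annotated ends of the pair overlap by 22 bases at their starts. It was at 485, 491, 462 and 535 CPM in OVX and 645, 893, 675 and 756 CPM in OVXE2, with Sham at 574, 580.2, 534 and 531 CPM. All OVXE2 values were above both other groups, whereas Sham and OVX overlapped. The log2 fold change was 0.58 ± 0.10 (adjusted p = 0.00889, edgeR).

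Col15a1 (ENSMUSG00000028339, chr4:47208161-47313167, plus strand) encodes a multiplexin next to basement membranes of vessels and muscle. It was at 345, 381, 344 and 386 CPM in OVX, 433, 526, 426 and 496 CPM in OVXE2, and 409, 392.5, 392 and 381 CPM in Sham. The OVXE2 values were again above all others, by less than for the type IV pair: the log2 fold change was 0.36 ± 0.08, or 1.28-fold (adjusted p = 0.0334, edgeR). This call was the least secure. It was lost without any 1 of 10 of the 12 DAC libraries (Sham 1 to 4, OVX 1 to 4, OVXE2 2 and OVXE2 4), with adjusted p from 0.0502 to 0.123, and held without OVXE2 1 (0.0323) or OVXE2 3 (0.0417).

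Col4a1 and Col4a2 stayed called without any single DAC library, with log2 values of 0.53 to 0.68 and 0.49 to 0.65. Without the gland-rich OVX 1 they were 0.58 (adjusted p = 0.0217) and 0.57 (adjusted p = 0.0282). Within the set of 8 libraries by other-strand share, their log2 values were 0.59 and 0.55 but neither passed (adjusted p = 0.270 and 0.326, edgeR), and in a fit of only the OVX and OVXE2 libraries the adjusted p was 0.0501 and 0.0539. The set of 4 held only 1 OVXE2 library and was not fitted, and with the set as a term in the fit of all 12 the pair stayed called (0.0179 and 0.0212). Inside the set of 8 the OVXE2 libraries had the lowest shares, so neither fit fully separates the share from estradiol.

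A further 4 members had all 4 OVXE2 values above all 4 OVX values without passing the adjusted threshold. Counting the 3 called genes, 7 members showed this, against 3.12% of all genes. Col18a1, the multiplexin whose C-terminal fragment is endostatin, was at 387, 499, 438 and 508.5 CPM in OVX, 534, 628, 621 and 631 CPM in OVXE2 and 554, 550.4, 555 and 516.5 CPM in Sham (log2 0.39 ± 0.10, adjusted p = 0.0805, edgeR). Col5a3, a fibrillar type V chain, was at 217, 262, 247 and 303 CPM in OVX, 314, 373, 405.5 and 346 CPM in OVXE2 and 335.5, 336, 304 and 281.5 CPM in Sham (log2 0.48 ± 0.12, adjusted p = 0.0781). The Sham values overlapped with OVXE2 for both genes, and with OVX for Col5a3. Col6a1 and Col6a2, chains of the beaded filaments around cells, had log2 values of 0.26 (adjusted p = 0.307) and 0.31 (adjusted p = 0.259).

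By contrast, Col1a1 was at 56560, 69650, 68180 and 59460 CPM in OVX and 57020, 74230, 60640 and 58620 CPM in OVXE2. The groups overlapped throughout, and the log2 values were -0.03 for Col1a1, -0.07 for Col1a2 and -0.11 for Col3a1. Over the 9 fibrillar genes the median was 0.13, over the 6 type IV genes 0.43 and over both multiplexins 0.38, beside 0.14 for all 36 members tested and 0.02 for all genes. OVXE2 2 was the highest DAC library for 16 of the 36 members, and without it their median was 0.06. The type IV chains accordingly took 1.17 to 1.34% of the DAC collagen counts in OVXE2, 0.707 to 0.911% in OVX and 0.925 to 1.08% in Sham.

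The summed markers of blood vessel lining moved with these genes. The sum of the 6 endothelial markers listed of 8 chosen (Cdh5, Kdr, Tek, Tie1, Emcn and Vwf) was 613, 604, 593 and 700.5 CPM in OVX and 796, 961.5, 784 and 887 CPM in OVXE2, and 638 to 682 CPM in Sham, with none of the 6 at 0. Per CPM of that sum, Col4a1 was at 1.19 to 1.33 in OVX and 1.32 to 1.48 in OVXE2, and Col15a1 at 0.552 to 0.631 and 0.544 to 0.559. Col4a2 was at 0.764 to 0.813 in OVX and 0.811 to 0.929 in OVXE2. On this scale the groups overlapped for each of these genes, for Col4a1 and Col4a2 only at the edges of their ranges. The means in OVX and OVXE2 were 1.24 and 1.39 for Col4a1 and 0.787 and 0.863 for Col4a2. Taken singly, Cdh5, Kdr and Tie1 had all OVXE2 values above OVX, whereas Tek, Emcn and Vwf overlapped. Vwf averaged 116.7 CPM in OVX and 102.5 CPM in Sham, the reverse of the order of Col4a1. The part of endothelial cells in the rise was not tested.

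**Figure D4:**
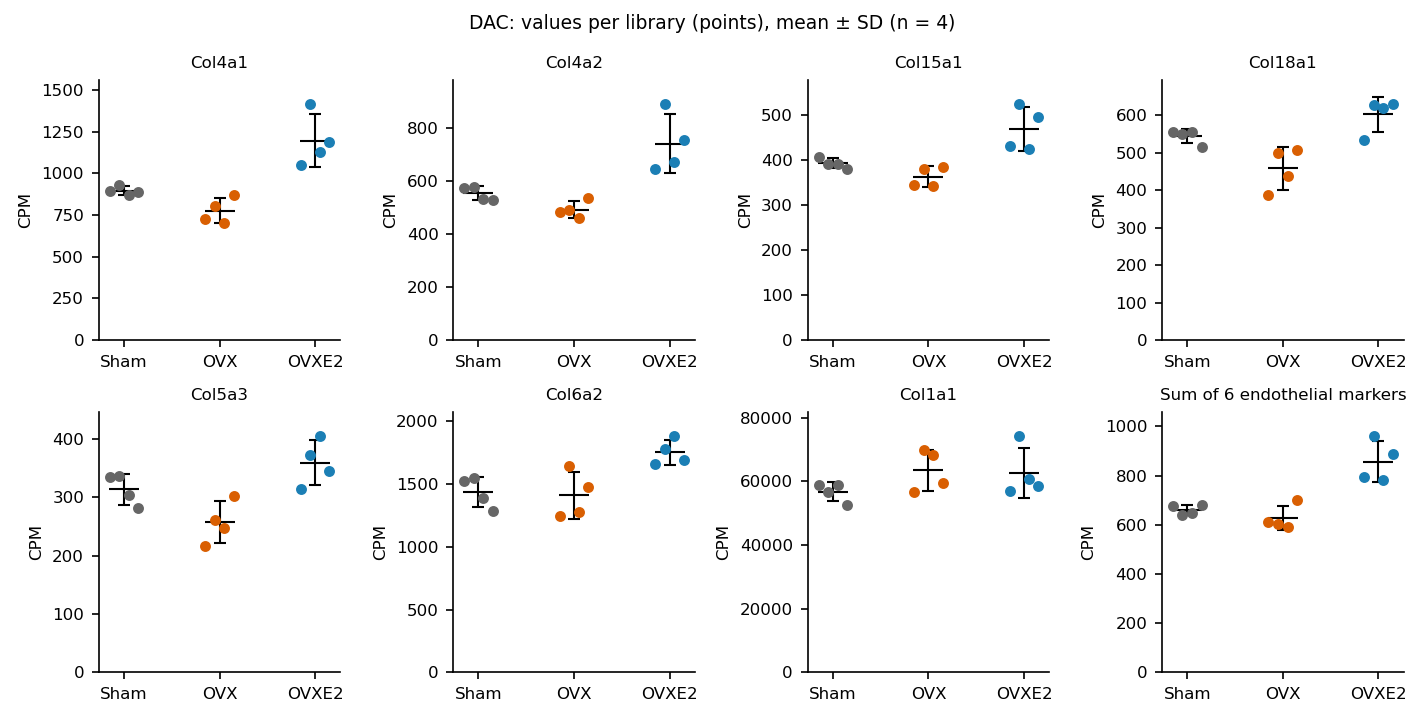
DAC levels in CPM of Col4a1, Col4a2, Col15a1, Col18a1, Col5a3, Col6a2 and Col1a1 and the sum of 6 endothelial markers, 1 point per library with the mean and SD of each group (n = 4). The OVXE2 points of the basement membrane genes and of the marker sum lie above all OVX points, and those of Col1a1 overlap with OVX.

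Among the genes that act on collagen, 2 of 22 processing genes and 1 of 9 proteoglycans and glycoproteins rose in the OVXE2 DAC against OVX. None of 10 crosslinking, 8 receptor and 10 degradation genes tested did, and none of any list fell, where 0.676% of all genes rose and 1.45% fell. Of the 9 proteoglycans and glycoproteins, 7 had negative values, with a median of -0.11. Those at an unadjusted p under 0.05 (edgeR) were Fmod (log2 -0.47), Prelp (-0.40), Kera (-2.18) and Fn1, which rose. Kera was scarce, with means of 0.266 CPM in OVXE2 and 1.21 CPM in OVX. Colgalt2, which adds galactose to hydroxylysine of collagen chains, went from 11.4 to 23.1 CPM (log2 1.00 ± 0.09, adjusted p = 0.000198, edgeR). Plod2, which hydroxylates lysine in the chain ends and so sets the type of crosslink, went from 243 to 397 CPM (log2 0.70 ± 0.10, adjusted p = 0.00363). Fn1, fibronectin, had log2 0.71 ± 0.13 (adjusted p = 0.0163), a call lost without OVX 3 (adjusted p = 0.0655) and in a fit of only the 2 groups (0.0817). Colgalt2 and Plod2 stayed called without any single library. Within the set of 8 none of the 3 was called (adjusted p = 0.0576, 0.147 and 0.339 for Colgalt2, Plod2 and Fn1).

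OVXE2 and Sham DACs were compared with the same OVXE2 libraries, so this is not a separate test of estradiol. None of 36 collagen genes was called, where 1.05% of all genes were, and 12 members had an unadjusted p under 0.05, as did 1194 of all genes (8.77%). Col4a2 had log2 0.38 ± 0.10 (adjusted p = 0.126, edgeR), Col4a1 0.38 ± 0.10 (adjusted p = 0.144) and Col24a1 0.32 ± 0.10 (adjusted p = 0.257). DESeq2 called 2, Col4a2 (adjusted p = 0.00717) and Col4a1 (adjusted p = 0.0095). In all, 7 members had all 4 OVXE2 values above Sham, namely Col4a1, Col4a2, Col5a2, Col6a1, Col6a2, Col11a1 and Col15a1, against 3.25% of all genes.

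Colgalt2 (log2 0.86, adjusted p = 0.00100, edgeR), Plod2 (0.60, adjusted p = 0.0163) and Fn1 (0.67, adjusted p = 0.0354) also rose in the OVXE2 DAC against Sham. Within the set of 8 all 3 calls were lost (adjusted p = 0.0529, 0.219 and 0.261), and in a fit of only the 2 groups those of Plod2 (0.0918) and Fn1 (0.123). Plod2 lost the call without Sham 1 (adjusted p = 0.0740), Sham 4 (0.0558) or OVXE2 4 (0.0532). Fn1 lost it without any 1 of Sham 1 to 4, OVX 2, OVX 3, OVXE2 2, OVXE2 3 or OVXE2 4, with adjusted p from 0.0620 to 0.125.

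In the DAC, 0 of 36 collagen genes were called in OVX against Sham by edgeR's test. Neither was any of the 13617 genes (0%): 4 members and 437 genes had an unadjusted p under 0.05, and DESeq2 called 10 genes and no member. The smallest p values belonged to Col18a1 (log2 -0.28 ± 0.10), Col5a3 (-0.32 ± 0.12) and Col4a1 (-0.24 ± 0.10), each with adjusted p = 0.874. All OVX values of Col4a1 and Col18a1 lay below Sham, against 0.867% of all genes, and all values of Col11a1 above it, against 2.06%. For Col4a1 the nearest values were 868.3 CPM in OVX and 868.7 CPM in Sham. This comparison shares its OVX libraries with that of OVXE2 against OVX. Col1a1 and Col1a2 had log2 values of 0.13 and 0.16.

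In gingiva no collagen gene was called in any of the 3 comparisons by edgeR's test, and neither was any of the 12680 genes (0%). At an unadjusted p under 0.05 there were 0 members and 1530 genes in OVX against Sham, 2 and 1766 in OVXE2 against OVX, and 4 and 939 in OVXE2 against Sham. DESeq2 called 44, 92 and 8 genes and no member, though in OVX against Sham it gave only 2847 genes an adjusted p. For the abundant collagen genes the gingival libraries spread more than those of the DAC, as given above for Col1a1, Col1a2 and Col3a1. Col1a1 was at 3245, 3716, 1985 and 2783 CPM in Sham, 2910, 5848, 4185 and 3087 CPM in OVX, and 2253, 4730, 2430 and 4033 CPM in OVXE2. All 3 groups overlapped. Sham 3 was the lowest gingival library for 24 of 35 members and OVX 2 the highest for 15. Summed gland markers ran the other way, highest of the gingival libraries in Sham 3 (11830 CPM) and lowest in OVX 2 (831 CPM). Their part in these values was not tested.

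Positive values prevailed in gingival OVX against Sham, in 33 of 35 members, with a median log2 of 0.34 beside 0.01 for all genes. The median was 0.19 without Sham 3 and 0.16 without OVX 2. No member had an unadjusted p under 0.05. The smallest p values were those of Col27a1 (log2 0.38, adjusted p = 0.419, edgeR), Col6a3 (0.52, adjusted p = 0.430) and Col8a2 (0.56, adjusted p = 0.489), a fibrillar, a beaded filament and a short-chain collagen.

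Col4a3, a type IV chain of specialised basement membranes such as those of the kidney, had the smallest p in both gingival comparisons with estradiol. It was at 0.458, 0.210, 0.279 and 0.283 CPM in Sham, 0.364, 0.660, 0.333 and 0.304 CPM in OVX and 0.654, 1.01, 1.25 and 1.37 CPM in OVXE2, which is 5 to 33 counts per library. All OVXE2 values were above Sham, against 2.45% of all genes, while 1 of them was below the highest OVX value. The log2 values were 1.38 ± 0.34 against OVX (adjusted p = 0.251, edgeR) and 1.78 ± 0.35 against Sham (adjusted p = 0.518). Col4a4, the neighbouring gene that starts 71 bases away on the other strand, was at 0.998, 0.671, 0.502 and 0.364 CPM in Sham, 0.546, 0.880, 0.855 and 0.434 CPM in OVX and 0.785, 1.39, 1.73 and 1.25 CPM in OVXE2. Its groups overlapped, with log2 0.93 against OVX (adjusted p = 0.311) and 1.00 against Sham (adjusted p = 0.635). Col27a1 against OVX was at -0.33 (adjusted p = 0.418), and Col24a1 against Sham at 0.57 (adjusted p = 0.661). Summed skeletal muscle markers were 1727 to 5549 CPM in gingival OVXE2, 336 to 2045 CPM in Sham and 714 to 2497 CPM in OVX, and their part in these values was not tested.

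**Figure D5:**
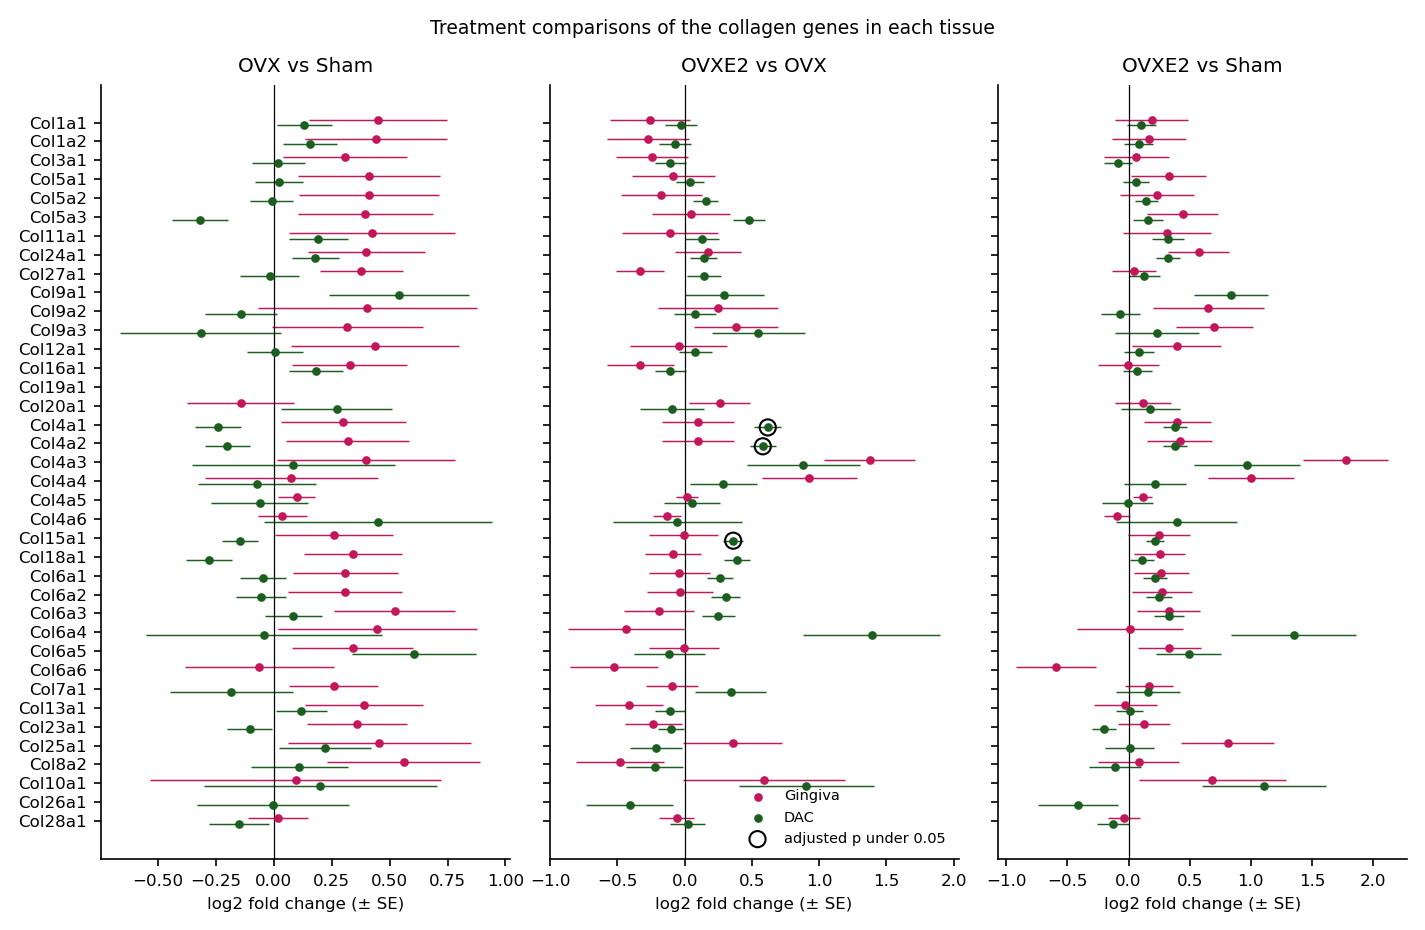
Log2 fold changes of the collagen genes in OVX against Sham, OVXE2 against OVX and OVXE2 against Sham, gingiva and DAC, with standard errors and a ring where the adjusted p was under 0.05. The rings are those of Col4a1, Col4a2 and Col15a1 in the DAC, OVXE2 against OVX.

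Whether the treatments acted differently in the tissues was tested directly, as the difference of the DAC and gingival effects in 1 fit of 24 libraries. No collagen gene of 37 was called in any of the 3 differences, beside 0% of all genes for OVX against Sham, 0.19% for OVXE2 against OVX and 0.0633% for OVXE2 against Sham. Col4a1, called in the DAC and not in gingiva for OVXE2 against OVX, had a difference of 0.52 (adjusted p = 0.626, edgeR). Its response was therefore not shown to differ between tissues. The smallest p values were those of Col18a1 (-0.59) and Col5a3 (-0.69) for OVX against Sham, both with adjusted p = 0.576, with Col23a1 next at -0.43. For OVXE2 against OVX they were Col6a4 (1.84, adjusted p = 0.472), Col27a1 (0.49, adjusted p = 0.558) and Col6a6 (-1.71, adjusted p = 0.568). For OVXE2 against Sham they were Col6a4 (1.37, adjusted p = 0.661), Col25a1 (-0.77) and Col4a4 (-0.75). The Col6a4 values rest on DAC OVXE2 2, at 14.3 CPM where the other 3 libraries were at 2.36 to 3.41 CPM.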

How the data were processed

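Poly(A) RNA of 24 libraries was measured, 4 per tissue and treatment. Per the submitters' processing notes, fastp, STAR and DESeq2 were used and the genome was GRCm38 (mm10); their versions are not given in the sources read for this work. The deposited tables hold raw read counts per Ensembl gene for either strand, the same strand and the opposite strand, and the opposite-strand counts were used. Per the deposited tables' summary rows, 0.495 to 1.04% of reads had no alignment, 6.40 to 13.5% had more than 1, 19.8 to 32.2% lay in no gene and 0.872 to 1.19% were ambiguous, and these were left out. GENCODE M21 named 38186 of 38321 identifiers and gave transcript sequences, positions and lengths.

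From the counts, genes with low values were left out by filterByExpr, TMM factors were computed, and edgeR 4.0.16 (robust glmQLFit, then glmQLFTest) was run in R 4.3.3 with limma 3.58.1, with 12 libraries per tissue fit (12680 genes in gingiva, 13617 in DAC) and 24 for tissue differences and interactions (14209 genes). Adjusted p is Benjamini-Hochberg over all genes of a fit, called under 0.05. The scripts were tested on simulated data. Alternatives were RLE and total-count scaling, DESeq2 1.42.0, no filter, counts on either strand, a replicate block, the larger set by other-strand share, only the groups compared, leaving out each library, and, chosen after seeing the data, the set as a term.

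The members and gene lists were chosen with earlier results of these data known. Named with values are members called in a treatment contrast or interaction, the 8 largest called rises and falls between tissues in Sham, members of at least 100 CPM per kilobase, the 3 smallest p where none was called, and up to 3 called genes per pathway list. Others named were chosen after their values were seen. No 2 libraries held the same counts.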

Additional observations from a re-analysis of the deposited data

Results flagged for a closer look

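Within groups of 4 libraries, 7 of 228 combinations of member and group had 1 library far from the other 3 by Dixon's criterion, and chance alone gives about 1 in 20 groups. In the DAC, Col6a4 was at 14.3 CPM in OVXE2 2, where the others were at 2.36 to 3.41 CPM. Col18a1 was at 516.5 CPM in Sham 4, below 550.4 to 554.6 CPM, and at 533.8 CPM in OVXE2 1, below 620.7 to 631.1 CPM. Col19a1 was at 0 CPM in OVXE2 2. In gingiva, OVX 2 stood apart 3 times, with Col4a3 at 0.660 CPM, Col9a2 at 1.045 CPM and Col27a1 at 26.73 CPM, each the highest of its group.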

How the results depend on the processing

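All 70 gene values named by the rule kept their direction under every alternative run, and 59 also kept their side of the threshold. In the DAC, OVXE2 against OVX, the 3 collagen genes called became 5 with DESeq2, 0 in the larger set by other-strand share, 0 in a fit of only the 2 groups, and 2 to 3 without 1 library; over all genes the 290 calls became 598, 39 and 189 under the first 3. In OVXE2 against Sham, 0 became 2 with DESeq2. Col15a1 also lost its call with total-count scaling (adjusted p = 0.0674, edgeR), no filter (0.0845) and the set as a term (0.0667). The cause was not tested. Collagen genes called between tissues numbered 34 to 35 in Sham, 31 to 34 in OVX and 32 to 35 in OVXE2. Same-numbered libraries did not deviate together in every pair: correlations exceeded 0.1 in 4 of 12 DAC pairs, 7 of 12 gingival pairs and 3 of 12 pairs across tissues, and 0 of 12 libraries in either tissue correlated best with its own number in every other group. With the replicate block 2 collagen genes were called in DAC OVXE2 against OVX, Col4a1 (adjusted p = 0.0146) and Col4a2 (0.0242), and Col15a1 was not (0.0612). Fn1 in OVXE2 against Sham lost its call with the block (0.0782) and with counts on either strand (0.0523). Members under about 1 CPM rest on few counts, as Col4a3 and Col25a1 in gingiva, and only large differences could be seen there.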
